A study of Mus musculus with 70 samples.

Results

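The genes described here are 36 genes of the choroid plexus epithelium, followed library by library in mouse dorsal hippocampus. They were selected on symbols of transport, hormone, junction and secreted genes of that tissue, with earlier results from the same libraries known. Of the 36, 35 are in the table of 24346 genes and Mfrp is not analysed here. A mean of at least 1 FPKM (fragments scaled for the length of the gene and for the mapped fragments of the library, so that levels of different genes can be set side by side) over all libraries was required for testing, which 33 of the 35 and 12994 of all genes reached. Msx1 and Lmx1a lay below it. The median over libraries was under 1 FPKM for 14 of the 33, so these passed through the libraries in which they were high.

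RNA was sequenced from 70 adult male C57BL/6J mice, 10 in each of 7 groups, to ask how patterns of voluntary wheel running bear on hippocampal gene expression during memory consolidation. Groups are named by days of initial running, of sedentary delay and of reactivating running. The 14-0-0 mice ran for 14 days, the 14-7-0 and 14-14-0 mice then spent 7 or 14 days without a wheel, the 14-7-2 mice had 2 further days of running after a 7-day delay, and the 0-0-2 mice ran for 2 days only. Sedentary mice had no wheel. These 6 groups were trained briefly in the object location memory task (OLM) before the tissue was taken, and home cage mice had neither a wheel nor OLM. All mice were housed singly, wheels were taken out on the evening before OLM, and 5 libraries of each group came from each of 2 harvest cohorts.

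The choroid plexus is a sheet of epithelium over a vascular core that hangs in the brain ventricles, next to but not part of the hippocampus. Its epithelial cells secrete cerebrospinal fluid with ion pumps, channels and bicarbonate transporters, seal the blood from that fluid with tight junctions, and export carrier proteins and growth factors. Transthyretin, the product of Ttr, is the best known of these and carries thyroid hormone and, with retinol-binding protein, vitamin A. In bulk tissue, fewer cells of a type and less RNA per cell cannot be told apart.

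Because these genes varied together, the upstream sequences of 4 of them are shown. They are the 4 genes most like Ttr over the libraries whose 250 bases before the start lie at the RefSeq gene start and overlap no annotated GENCODE exon. The sequences are from RefSeq (GRCm38.p6, the coordinates of mm10), in the direction of transcription, and 30 of the 36 genes had an entry. Those of F5 lie within the annotated gene Gm16548 and those of Kcnj13 within Gigyf2, in both cases outside the exons, and those of Kcne2 and Aqp1 overlap no annotated gene. Capitals mark TATAAA.
F5, chr1:164151585-164151834, plus strand: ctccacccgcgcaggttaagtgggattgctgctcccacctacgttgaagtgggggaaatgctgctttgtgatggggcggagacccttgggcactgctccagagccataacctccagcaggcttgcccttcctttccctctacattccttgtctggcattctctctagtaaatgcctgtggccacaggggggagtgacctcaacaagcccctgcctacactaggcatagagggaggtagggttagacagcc
Kcne2, chr16:92292139-92292388, plus strand: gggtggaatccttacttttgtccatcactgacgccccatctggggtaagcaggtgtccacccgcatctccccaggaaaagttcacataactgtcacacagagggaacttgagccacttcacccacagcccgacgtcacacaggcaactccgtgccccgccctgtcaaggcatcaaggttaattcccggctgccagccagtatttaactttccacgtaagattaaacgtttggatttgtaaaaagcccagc
Kcnj13, chr1:87394730-87394979, minus strand: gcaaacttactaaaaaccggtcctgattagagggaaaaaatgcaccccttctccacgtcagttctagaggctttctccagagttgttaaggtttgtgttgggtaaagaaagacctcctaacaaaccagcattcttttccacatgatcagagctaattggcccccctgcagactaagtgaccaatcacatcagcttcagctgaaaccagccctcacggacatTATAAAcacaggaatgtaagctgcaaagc
Aqp1, chr6:55336049-55336298, plus strand: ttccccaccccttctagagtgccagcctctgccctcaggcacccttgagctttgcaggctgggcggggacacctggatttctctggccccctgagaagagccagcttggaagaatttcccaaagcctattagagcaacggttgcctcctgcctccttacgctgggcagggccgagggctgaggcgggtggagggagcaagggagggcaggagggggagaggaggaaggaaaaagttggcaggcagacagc
Among the 4, TATAAA or its reverse complement TTTATA was found in Kcnj13 alone, starting 29 bases before the start. Over the 44 entries of the 30 genes it was found in 5 (11.4%), beside 12.4% of all 32851 promoter entries. The motif TAATCC, or GGATTA on the other strand, was found in 3 of the 44 (6.82%), at Ace, Mfrp and Otx2, beside 6.25% of all entries. Other sites of homeobox factors were not searched for. The 36 genes lie on 16 chromosomes, and 1 pair of neighbours lies within 1 Mb.

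Some libraries stood apart. In 14-7-0 replicate 4, 10279 genes were listed at 0, beside 6243 to 7199 in the other 69, and 13 of the 35 genes were at 0 there, namely Folr1, Kcnj13, Kcne2, Sostdc1, Steap1, Tmem72, Cldn1, Cldn2, Col8a1, Calml4, Wfdc2, Rdh5 and Lmx1a. In sedentary replicate 6 the summed level of 8 pyramidal and granule cell genes was 77.8 FPKM, the lowest of all. The lowest summed level in the 6 other groups was 466.6 FPKM, in 0-0-2. Ttr in both lay within the range of the other sedentary libraries, and results that change without them are given below. For several genes sedentary replicate 6 was the highest sedentary library, among them Clic6 (9.86 FPKM, next 4.52), Otx2 (6.36, next 2.59) and Lbp (7.13, next 2.93). The same held for 1500015O10Rik (15.9, next 5.53), Calml4 (9.79, next 6.46) and Rdh5 (4.11, next 2.25). It was the lowest for Kl (1.97) and Car12 (3.17). It thus set the highest sedentary level used below for such genes.

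Ttr had the highest median of the list over all libraries. Over the 70 libraries it ran from 15.45 to 21240 FPKM with a median of 104.0, and it was the most abundant of all genes in 12 libraries. The 35 genes together took 0.0326% to 6.21% of the summed FPKM of a library. Values rose without a clear break, since the widest gap between neighbours among the Ttr values lay between 501 and 877.1 FPKM (0.81 on the log2 scale).

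In sedentary mice Ttr had a lowest value of 15.45, a median of 74.4 and a highest value of 343.9 FPKM. The 14-0-0 libraries ran from 25.64 to 15640 with a median of 2225, and the 14-14-0 libraries from 32.19 to 21240 with a median of 2041. Each of these groups held libraries in the sedentary range beside libraries far above it. No 14-14-0 library lay between 179.1 and 3902 FPKM, and no 14-0-0 library between 981.6 and 3468, so both medians are midpoints of a gap. For the other genes, too, a median of these groups can lie between low and high libraries. The medians of the other groups lay near the sedentary one, at 72.4 FPKM in 14-7-0, 79.2 in 14-7-2, 99.2 in 0-0-2 and 112.3 in home cage. Their highest libraries reached 2085 FPKM in 14-7-0, 2198 in 14-7-2, 10650 in 0-0-2 and 15190 in home cage. All 7 groups overlapped. Ttr exceeded 1000 FPKM in 17 libraries, which were 5 of 14-0-0, 5 of 14-14-0, 3 of home cage, 2 of 0-0-2, 1 of 14-7-0, 1 of 14-7-2 and 0 of sedentary.

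**Figure D1:**
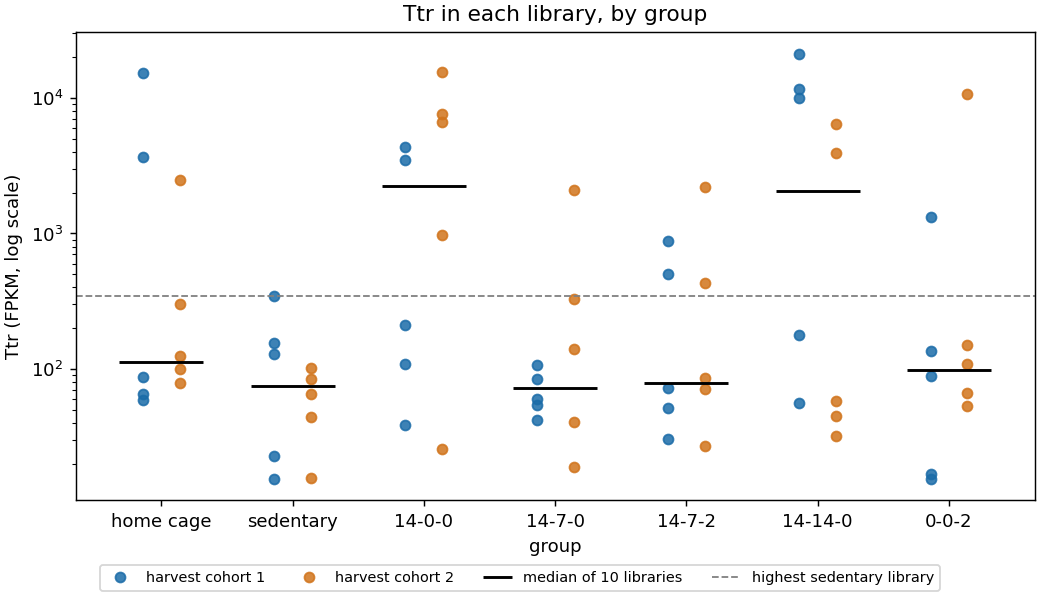
Ttr in FPKM on a log axis for each of the 70 libraries by group, with points coloured by harvest cohort, a bar at the median of 10 libraries and a dashed line at the highest sedentary library (343.9 FPKM). In 14-0-0 the points spread over much of the range (median 2225 FPKM). In 14-14-0 they fall into a low and a high set, with none between 179.1 and 3902 FPKM and a median of 2041. In the other groups most points lie near the sedentary ones.

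Folate and retinoid genes were high in the same groups. Folr1 encodes a folate receptor that moves folate into the cerebrospinal fluid. It had medians of 1.28 FPKM in sedentary, 9.73 in 14-0-0 and 11.6 in 14-14-0, and its highest value was 104.4 in a 14-14-0 library. No 14-14-0 library had Folr1 between 1.28 and 21.8 FPKM. Home cage libraries had a Folr1 median of 1.49 FPKM and reached 63.4. Rdh5, a retinol dehydrogenase, had medians of 1.61, 5.39 and 4.95 FPKM in sedentary, 14-0-0 and 14-14-0. It was highest in 14-0-0, at 30.5 FPKM.

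Kl encodes klotho, a coreceptor for a hormone of the fibroblast growth factor family. Its sedentary libraries ran from 1.97 to 10.7 FPKM with a median of 7.24, and those of 14-14-0 from 6.52 to 157.2 with a median of 22.8. The lowest Kl value was that of sedentary replicate 6. Prlr, the prolactin receptor, had a median of 0.39 FPKM in sedentary and 3.65 in 14-0-0, and its highest sedentary value, 2.26 FPKM, was also in replicate 6.

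Among channel genes, Clic6, Kcne2 and Kcnj13 had the highest Spearman correlations with Ttr over the 70 libraries (0.961, 0.958 and 0.943). Kcne2 encodes a potassium channel accessory subunit, and Kcnj13 an inwardly rectifying potassium channel of epithelia. Kcne2 ran from 0.11 to 1.37 FPKM in sedentary (median 0.27), from 0.23 to 55.1 in 14-0-0 (median 11.3) and from 0.11 to 87.4 in 14-14-0 (median 10.9). Kcnj13 had medians of 0.55, 14.1 and 13.9 FPKM in these groups, and its medians in 14-7-0 and 14-7-2 were 0.60 and 0.62. The groups overlapped for both genes, through the libraries that were also low in Ttr. No 14-14-0 library had Kcne2 between 1.18 and 20.6 FPKM.
Aqp1, a water channel, had medians of 0.31 FPKM in sedentary, 4.15 in 14-0-0 and 4.79 in 14-14-0. Clic6, of the chloride intracellular channel family, had medians of 1.23, 9.07 and 11.6 FPKM. The cation channel Trpv4 reached 17.6 FPKM in 14-0-0, while Trpm3 started from a higher level, with a sedentary range of 5.87 to 16.8 FPKM and a highest value of 118.2 in 14-14-0.

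Among secreted genes other than Ttr, Enpp2 had the highest level, and its sedentary and 14-7-0 medians of 76.9 and 76.3 FPKM were next to those of Ttr, 74.4 and 72.4. It encodes autotaxin, which makes lysophosphatidic acid. Enpp2 ran from 42.1 to 133.3 FPKM in sedentary (median 76.9), from 55.7 to 2188 in 14-0-0 (median 371.3) and from 54.6 to 2871 in 14-14-0 (median 371.2). No 14-14-0 library had Enpp2 between 91.9 and 651 FPKM. Igf2, an insulin-like growth factor, ran from 8.74 to 22.8 FPKM in sedentary, from 11.3 to 165.0 in 14-0-0 and from 8.88 to 197.6 in 14-14-0. Both were measurable in every library.
Igfbp2, which binds insulin-like growth factors, was highest in a home cage library, at 146.9 FPKM, and had a sedentary median of 12.5. 1500015O10Rik, a synonym of Ecrg4 that encodes a secreted peptide precursor, had medians of 3.15 FPKM in sedentary, 27.4 in 14-0-0 and 24.9 in 14-14-0. Sostdc1, an antagonist of bone morphogenetic protein and Wnt signalling, had medians of 2.21, 11.1 and 11.03 FPKM. Lower in level were F5, a coagulation factor, Wfdc2, a whey acidic protein family member, and Lbp, which binds lipopolysaccharide, with sedentary medians of 0.23, 0.22 and 1.75 FPKM.

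The solute carriers and membrane enzymes split by their floor. Slc31a1, a copper transporter, and Car12, a carbonic anhydrase, had sedentary ranges of 4.96 to 7.09 and 3.17 to 13.0 FPKM. Their highest libraries, of 14-14-0, had 48.8 and 64.7 FPKM. Slc4a5, a sodium bicarbonate cotransporter, started near 0, with a sedentary median of 0.10 FPKM, and reached 32.2. Slc13a4, a sulfate transporter, reached 34.2, Ace, the angiotensin-converting enzyme, 67.2, and Steap1, of a metalloreductase family, 32.7 FPKM, each in 14-14-0.

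Junction and matrix genes had low levels outside the high libraries. Cldn2, a claudin of leaky tight junctions, had medians of 0.27 FPKM in sedentary, 3.75 in 14-0-0 and 3.63 in 14-14-0. Cldn1, a sealing claudin, had medians of 0.51, 3.25 and 2.87 FPKM. The collagen genes Col8a1 and Col8a2 reached 20.1 and 17.1 FPKM. Of the genes without a settled role in this tissue, Tmem72 had a highest value 207 times its median of 0.11 FPKM, and Calml4 and Cab39l reached 59.7 and 71.2 FPKM.

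The homeobox genes differed among themselves. Otx2, a regulator of choroid plexus development, had medians of 0.76 FPKM in sedentary, 4.47 in 14-0-0 and 4.96 in 14-14-0. Lmx1a, which marks the dorsal midline from which the tissue forms, reached 3.04 FPKM. Msx1 did not follow the others, and its highest value, 3.14 FPKM, was in 14-7-0 replicate 4, the library with 10279 genes listed at 0. Its Spearman correlation with Ttr was 0.239, whereas that of the entry Msx1os, which is not on the list, was 0.832.

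**Figure D2:**
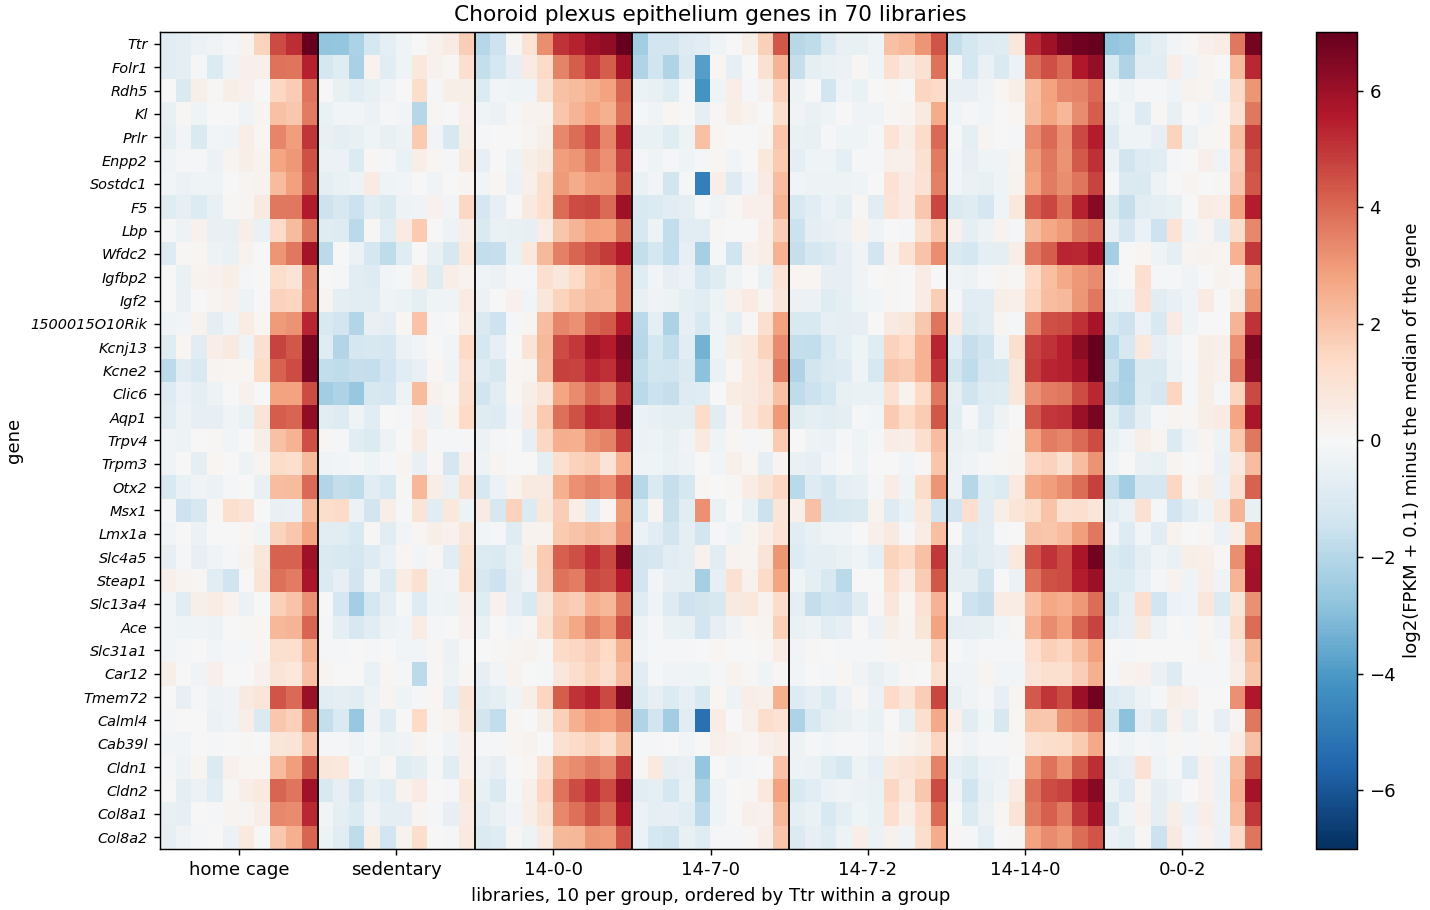
Each row is 1 of the 35 genes and each column 1 of the 70 libraries, grouped and ordered by Ttr within a group. Colour is log2(FPKM + 0.1) minus the median of that gene, from blue (lower) to red (higher), and the red columns run through nearly all rows in the same libraries, with Msx1 the row that departs most.

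The spread of the list was far wider than that of most genes. The coefficient of variation over 70 libraries had a median of 176% over the 33 tested genes (72% to 220%), beside 15% over all 12994 genes tested. For 30 of the 35 genes the highest library was 14-14-0 replicate 1. The highest value divided by the median ran from 5.68 for Car12 to 207 for Tmem72. For 34 of the 35 the highest group mean was that of 14-14-0, and for 27 the lowest was that of sedentary.

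As a description, Spearman correlations with Ttr were computed over the 70 libraries, which share their depth within each library. The 34 other genes had a median of 0.859, from 0.239 for Msx1 to 0.961 for Clic6 and F5, and 25 of them were at least 0.8. With the group mean removed the median was 0.897, and it was 0.86 in cohort 1 and 0.867 in cohort 2. Without the 2 libraries farthest from the median Ttr it was 0.847. Within the 10 sedentary libraries alone the median was 0.655, and 4 genes were negative, namely Cldn1, Msx1, Slc31a1 and Car12. All tested genes had a median of -0.0461.

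The slope of the log2 value on the log2 value of Ttr showed how the genes differed. It was 0.90 for Kcne2, 0.88 for Kcnj13 and 0.77 for Slc4a5, and it was 0.12 for Msx1, 0.20 for Car12, 0.22 for Cab39l and 0.24 for Slc31a1. Car12, Cab39l and Slc31a1 had medians of 11.4, 11.1 and 6.65 FPKM over all libraries, beside 0.63 for Kcne2 and 0.89 for Kcnj13. In the 17 libraries over 1000 FPKM of Ttr, Wfdc2 stood at 1.29 to 2.16 FPKM per 1000 of Ttr and Lbp at 1.51 to 3.53. Igfbp2, at 5.85 to 12.6, and Trpv4, at 0.659 to 1.54, spanned 2.15-fold and 2.34-fold. Wider ratios included those of Enpp2, at 73.1 to 470, and F5, at 0.694 to 5.72. The upper end of both came from 1 library, 14-7-2 replicate 9, with 1030 FPKM of Enpp2 and 12.6 of F5 beside 2198 of Ttr.

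**Figure D3:**
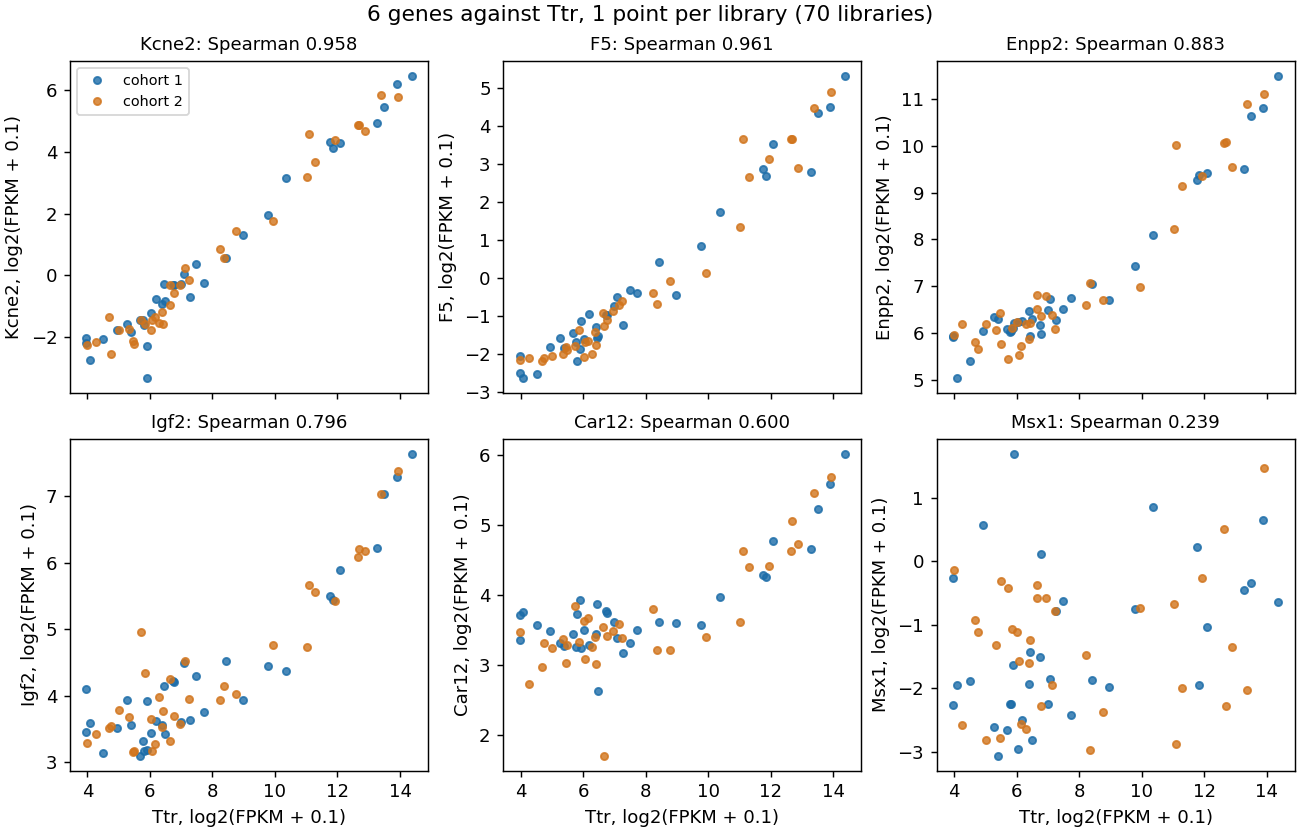
log2(FPKM + 0.1) of Kcne2, F5, Enpp2, Igf2, Car12 and Msx1 against that of Ttr, 1 point per library, coloured by harvest cohort. Kcne2 and F5 (Spearman 0.958 and 0.961) rise over the whole range, Enpp2, Igf2 and Car12 (0.883, 0.796 and 0.6) rise over narrower ranges of log2 values (slopes on Ttr of 0.53, 0.36 and 0.20), and Msx1 (0.239) is scattered.

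Outside the list, the 10 tested genes most like Ttr were Prr32 (Spearman 0.951), Krt18, Tuba1c, Abca4, Sulf1, Drc7, Pla2g5, Wdr86, Slc2a12 and Msx1os (0.832). Prr32 ran from 0 to 39.0 FPKM, and Krt18, an epithelial keratin, from 0 to 18.3. The 5 genes at the other end were Jakmip1 (-0.586), Kctd17, Pacsin1, A230050P20Rik and Rap2a (-0.54).

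Other lists of marker genes were set beside Ttr. The median correlation was 0.623 for 17 further choroid plexus genes, 0.489 for 9 genes of ependymal cells, which line the ventricles, and 0.457 for 11 genes of meninges and fibroblasts. It was 0.2 for 7 endothelial genes, -0.00961 for 7 thalamic genes, -0.133 for 7 oligodendrocyte genes, -0.193 for 8 hippocampal neuron genes and -0.226 for 6 neocortical genes. None of the genes on these lists was at 0 in all libraries. The summed ependymal level ran from 5.47 to 129.4 FPKM in sedentary, from 13.0 to 73.8 in 14-0-0 and from 19.6 to 124.6 in 14-14-0. Its medians were 28.15, 30.79 and 37.71 FPKM. The summed meningeal level ran from 16.6 to 50.05, from 22.5 to 75.5 and from 20.9 to 83.8 FPKM in the same groups. Its medians were 27.62, 44.38 and 47.65 FPKM. The part of these cell types in the results was not tested.

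**Figure D4:**
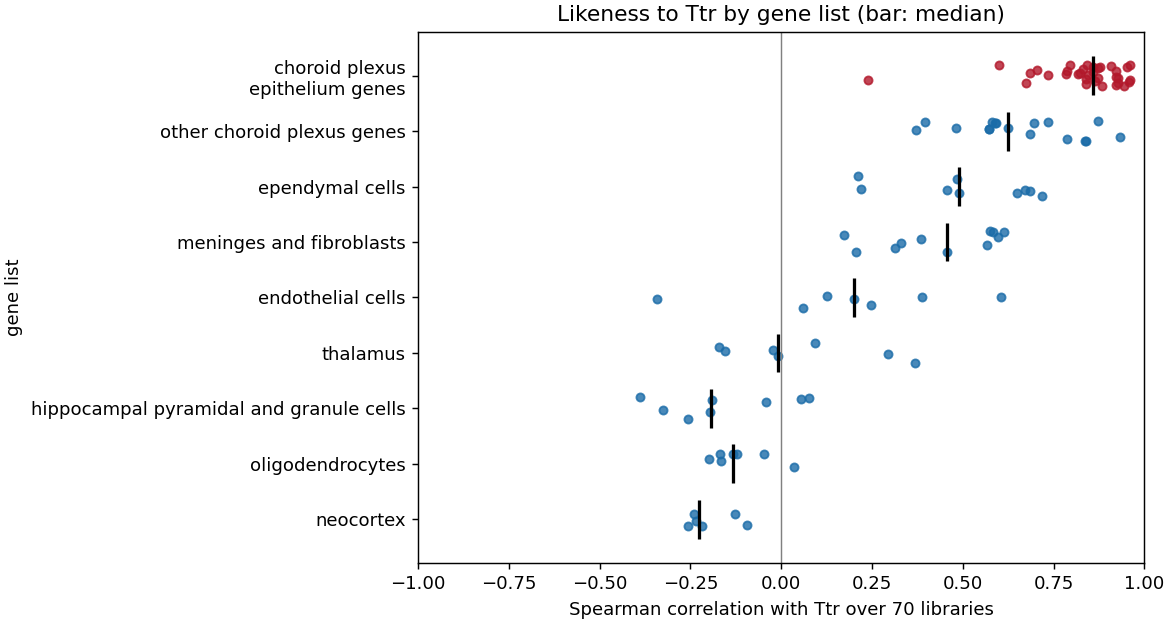
Spearman correlation with Ttr over 70 libraries for each gene of the list described here (red) and of 8 comparison lists (blue), with a bar at the median. The medians fall from 0.859 for the 34 choroid plexus epithelium genes over 0.623, 0.489 and 0.457 for further choroid plexus, ependymal and meningeal genes to values at or below 0 for thalamic, neuronal, oligodendrocyte and neocortical genes.

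Each group was then compared with sedentary on the log2(FPKM + 0.1) scale, which understates changes of low genes. The list was chosen on results of these same contrasts, so the values describe it and the calls at an unadjusted p under 0.05 (limma) support nothing. The 6 comparisons share the sedentary libraries.

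In 14-0-0, all 33 tested genes were called higher and 0 lower, beside 6.11% higher and 3.04% lower of all 12994 genes. The median log2 difference was 1.93, from 0.84 for Cab39l to 3.80 for Ttr (SE 1.10), beside 0.0083 over all genes. The lowest adjusted p of the list was 0.279 (limma, Benjamini-Hochberg), and 0 of all genes passed an adjusted p of 0.05, beside 794 higher and 395 lower at an unadjusted p under 0.05. In 14-0-0 the median number of libraries above the highest sedentary one was 6 of 10 over the 35 genes. Ttr had medians of 213.1 FPKM in cohort 1 and 6623 in cohort 2. It was over 1000 FPKM in 2 of 5 libraries of cohort 1 and 3 of 5 of cohort 2. With cohort 1 alone 3 of the 33 genes were called higher, beside 5.76% of all genes. With cohort 2 alone 28 were, beside 3.01%.

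In 14-14-0, all 33 were again called higher and 0 lower, beside 3.19% and 1.75% of all genes. The median log2 difference was 1.90, from 0.86 for Cab39l to 3.57 for Ttr (SE 1.24). The lowest adjusted p was 0.974, and the median number of libraries above the highest sedentary one was 5. The Ttr medians lay the other way round, at 9906 FPKM in cohort 1 and 58.0 in cohort 2. Libraries over 1000 FPKM were 3 of 5 in cohort 1 and 2 of 5 in cohort 2. With 5 libraries per cohort, each of these medians is the value of 1 library. With cohort 1 alone 33 genes were called, and with cohort 2 alone 3. The share over all genes is not given for these 2 fits, so the counts stand without a background.

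In home cage, 16 of the 33 were called higher and 0 lower, beside 1.22% and 1.08% of all genes. The differences had a median of 1.12 and ran from 0.43 for Cab39l to 2.38 for Ttr (SE 0.96), with a lowest adjusted p of 1. The called genes included Slc13a4 (1.36, SE 0.44), Kcnj13 (2.21, SE 0.83) and Wfdc2 (1.84, SE 0.71). A few libraries decided the count, which was 7 without home cage replicate 1 or 9, 9 without home cage replicate 3, 10 without sedentary replicate 0 or 9 and as high as 23. It was 0 with cohort 1 alone, 5 with cohort 2 alone, 5 in a joint fit of all groups and 1 at an unadjusted p under 0.01. The share over all genes is not given for these alternatives, so the counts stand without a background. The median was 0.70 without home cage replicate 3.

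The remaining groups gave no call. The genes vary together, so the counts of positive differences given here are not counts of separate observations. In 14-7-0, 0 were higher and 0 lower, beside 1.6% and 1.66% of all genes, with a median difference of 0.13 (-0.48 for Calml4 to 0.66 for Ttr, SE 0.72), 24 of 33 positive and a lowest adjusted p of 0.968. Calml4 was at 0 in 14-7-0 replicate 4. The median was -0.08 without 14-7-0 replicate 7 and 0.08 without replicate 9. It was 0.22 without 14-7-0 replicate 2, 3, 4 or 6, 0.22 without sedentary replicate 6 and 0.27 without sedentary replicate 3. Within cohorts it was -0.27 in cohort 1 and 0.58 in cohort 2. In 14-7-2, 0 and 0 were called beside 2.07% and 2.32%, with a median of 0.53, all 33 positive and a lowest adjusted p of 0.847. That median was 0.24 without 14-7-2 replicate 9. In 0-0-2, 0 and 0 were called beside 1.14% and 1.23%, with a median of 0.62, all 33 positive, and a lowest unadjusted p of 0.0739 (limma). Without 0-0-2 replicate 9 that median was 0.21, and without 0-0-2 replicate 2 the number called was 2.

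Of the 17 further choroid plexus genes 12 were tested, with 0 called lower throughout. Called higher were 5 in 14-0-0 (beside 6.11% of all genes), 10 in 14-14-0 (3.19%) and 2 in home cage (1.22%). It was 1 each in 14-7-2 (2.07%) and 0-0-2 (1.14%), and 0 in 14-7-0 (1.6%). Sulf1 was higher by 2.07 (SE 0.64) in 14-0-0 and 1.99 (SE 0.74) in 14-14-0 on the log2 scale. Of 9 meningeal genes tested, 5 were called higher in 14-0-0 (6.11% of all genes), 7 in 14-14-0 (3.19%) and 5 in home cage (1.22%), among them Lum, a proteoglycan of connective tissue. In 14-7-0, 2 of the 9 were called higher, Aldh1a2 and Slc6a20a (1.6% of all genes), and in 14-7-2 and 0-0-2 0 were. Of 8 ependymal genes, 1 was called higher, Mia in 14-14-0 (3.19% of all genes). Other lists also held calls against sedentary. Of 7 endothelial genes, 2 were called higher in 14-0-0 and 1 each in 14-7-0, 14-14-0 and home cage. In 14-7-0, 1 of 7 thalamic and 1 of 6 neocortical genes were called higher. In 0-0-2, 4 of 7 oligodendrocyte genes were called lower (1.23% of all genes).

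**Figure D5:**
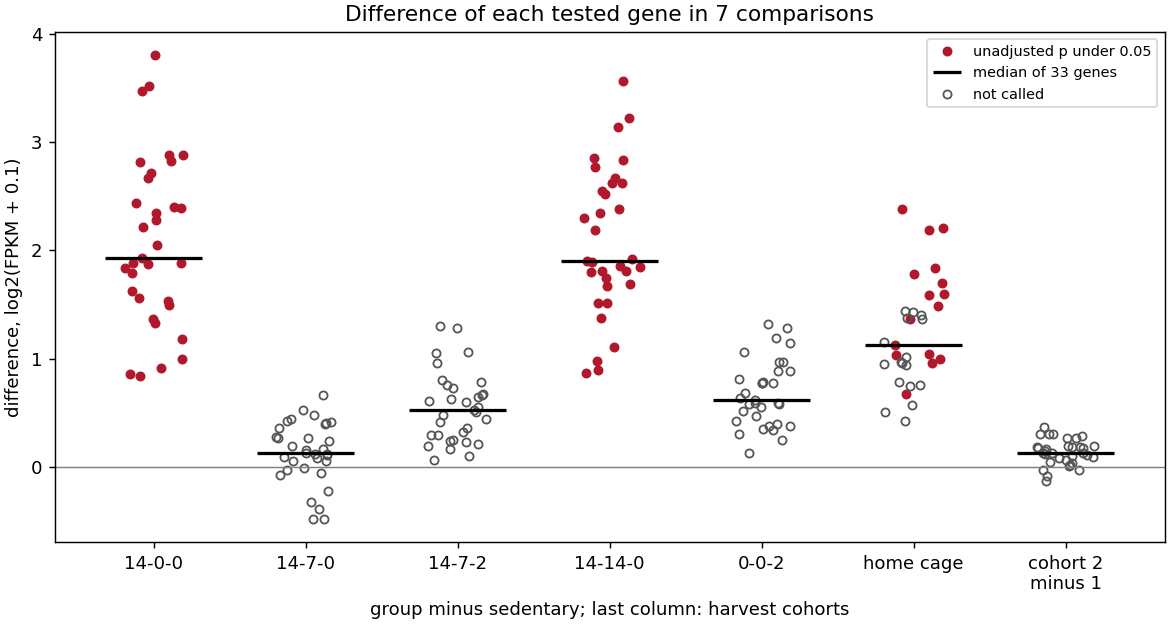
Difference in log2(FPKM + 0.1) for each of the 33 tested genes in 6 comparisons with sedentary and between harvest cohorts, filled where the unadjusted p was under 0.05, with a bar at the median. The medians were 1.93 in 14-0-0, 1.90 in 14-14-0, 1.12 in home cage and 0.13 to 0.62 in the others, and no point of the cohort comparison is filled.

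The harvest cohorts were not used in choosing the genes, so this contrast was tested, with the group as a covariate. Of the 33 genes, 0 were called higher and 0 lower in cohort 2, beside 3.58% and 8.29% of all genes (limma, unadjusted p under 0.05). The differences ran from -0.14 for Car12 to 0.37 for 1500015O10Rik on the log2 scale, and 29 of 33 were positive. The genes vary together, so their signs are not separate observations. The lowest adjusted p of the list was 0.827 (limma), whereas 76 of all genes passed 0.05. Ttr differed by 0.13 with an SE of 0.65. It was over 1000 FPKM in 8 libraries of cohort 1 and 9 of cohort 2, with medians of 106.7 and 101.2 FPKM.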

How the data were processed

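FPKM per gene were deposited by the authors for 70 libraries of dorsal hippocampus RNA. The submitters' processing notes name Bowtie, Cuffnorm and mm10. Per the study's methods, reads aligned uniquely by ELAND and Bowtie with few mismatches were kept and the Tuxedo protocol gave the FPKM. The FPKM carry no counts, and the reads that the study lists by sequencing run were not used here, because the labels do not tie those runs to libraries. Intervals for counting error are therefore not given. Replicates are separate mice.

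Groups were taken from the labels. Genes reaching a mean of 1 FPKM over all libraries were transformed as log2(FPKM + 0.1) and each group was compared with sedentary on 20 libraries with limma 3.58.1 in R 4.3.3 (a two-sided test, trended prior variance, no covariate, call at an unadjusted p under 0.05, Benjamini-Hochberg adjustment over 12994 genes). The study used Cyber-T, tried here as an alternative. The limma fit was tried on simulated data with independent, normally distributed values. The genes described here vary together, so that trial does not bear on their calls. The genes and the comparison lists were chosen with earlier results of these data known. The text names all 36 genes, the 10 highest and 5 lowest other tested genes by Spearman correlation with Ttr, and genes of the marker lists. Python 3.11.15 with matplotlib 3.10.9 drew the figures.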

Additional observations from a re-analysis of the deposited data

Results flagged for a closer look

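In each group of 10 libraries, the highest or lowest value of a gene was compared with the nearest of the others by the gap divided by the range. The 35 genes and their sum in 7 groups made 252 combinations, of which 52 had a value that stood apart. Chance would give 12.6 for independent, normally distributed values. The log2 values here were not shown to be normal and the genes share libraries, so these are not separate events. The values listed below are in FPKM.

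14-7-0 replicate 7 had the highest value for the sum of the 35 genes (2650), Enpp2 (297), Slc4a5 (2.47), Tmem72 (1.07), Ace (7.68), Col8a1 (1.58), F5 (2.44) and Trpv4 (2.07).
14-7-2 replicate 9 had the highest value for Folr1 (19.7), Kl (50.3), Enpp2 (1030), Aqp1 (9.51), Sostdc1 (30.9), Slc4a5 (9.22), Prlr (10), Tmem72 (5.31), Cldn1 (7.19), Cldn2 (10.8), Ace (17.2), Col8a1 (5.12), F5 (12.6), Igf2 (50.3), Cab39l (31.3), Slc31a1 (20.2), Lmx1a (0.944), Car12 (24.8) and Trpm3 (50.7).
Sedentary replicate 6 had the lowest value for Kl (1.97) and Car12 (3.17), and the highest value for Prlr (2.26).
0-0-2 replicate 9 had the highest value for Kl (106), Enpp2 (1900), Prlr (18.6), Steap1 (29.9), Cldn2 (26.7), Ace (37.9), Calml4 (49.4), Igfbp2 (80.7), Igf2 (131), Cab39l (47.2), Slc31a1 (33.1), Rdh5 (15.0), Lmx1a (1.64), Car12 (43.8) and Trpm3 (60.2).
14-7-0 replicate 4 had the lowest value for Sostdc1 (0) and Rdh5 (0), and the highest value for Msx1 (3.14).
Home cage replicate 3 had the highest value for Igfbp2 (147), Slc31a1 (35.9) and Car12 (48.1).
14-7-0 replicate 6 had the lowest value for Car12 (6.57).

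The 14-7-0 replicate 4 library also had the most genes listed at 0, and sedentary replicate 6 the lowest level of hippocampal neuron genes.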

How the results depend on the processing

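Counts of called genes in 14-0-0 (33) and 14-14-0 (33) kept their direction under all alternatives run. Shares over all genes are given for some fits of 14-0-0 and 14-7-0, and the other counts stand without one. With a minimum mean of 5 FPKM, 18 genes were tested and 18 were called in 14-0-0, 18 in 14-14-0 and 8 in home cage. In 14-0-0 that stood beside 5.36% of all genes called higher. At an unadjusted p under 0.01, 24 were called in 14-0-0 (beside 2.07% of all genes higher), 21 in 14-14-0 and 1 in home cage. With cohort 1 alone 3 were called in 14-0-0 (beside 5.76% of all genes higher) and 0 in home cage. With cohort 2 alone 3 were called in 14-14-0, 2 in 14-7-0 (beside 0.777%) and 5 in home cage. Each of these fits had fewer samples. A joint fit of all groups gave 5 in home cage, and Cyber-T gave 1 in 14-7-2. The cause of these changes was not tested. In 14-0-0 the joint fit gave 33, beside 8.3% of all genes higher, and Cyber-T gave 33, beside 2.58%. Leaving out each library in turn, chosen after seeing the data, gave 31 to 33 in 14-0-0, 32 to 33 in 14-14-0, 7 to 23 in home cage, 0 to 1 in 14-7-2, 0 to 1 in 14-7-0 and 0 to 2 in 0-0-2. In 14-7-0, 1 gene was called without sedentary replicate 3 or 6 and without 14-7-0 replicate 2, 4 or 6, and in 14-7-2, 1 without replicate 6. With a replicate block 33 genes were called in 14-0-0, 33 in 14-14-0, 24 in home cage and 0 in each of the other groups. With that block 7.91% of all genes were called higher in 14-0-0 and 2.05% in 14-7-0. Same-numbered libraries correlated in their deviations from -0.40 to 0.38, above 0.1 in 2 to 7 of 10 pairs per comparison, and 0 to 3 of 10 correlated best with their own number, so the numbers were not taken to pair the samples. The replicate block could not be fitted for the harvest cohorts, because each number lies in 1 cohort. Without counts per library, no counting precision is given for low values such as those of Slc4a5 and Tmem72.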
